A study of Hipposideros armiger with 2 samples.

Results

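The ATP-binding cassette (ABC) transporters were taken as every assembled gene whose listed protein name, written in capitals, was ABC followed by a subfamily letter from A to G and a number. The rule found 39 names carried by 111 assembled genes, of 12783 names and 55378 assembled genes in all. RNA of the great Himalayan leaf-nosed bat, Hipposideros armiger, had been sequenced in 2 libraries from the cave CW, each labelled liver, WT and heavy metals exposure. The labels give male sex and adult age for replicate 2 only, and the design text of the series describes 5 adult males per cave, caught in Guangdong; animals of the other cave, YD, were not analysed here. The 2 libraries form 1 group with no unexposed animals analysed here, so the levels of the family and the spread between the 2 libraries can be described, and neither can be set against a control. No p-value was computed for 1 library against 1 library. The labels name no separate animal for each library, so the spread may be partly technical.

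ABC transporters use the energy of ATP to move lipids, bile acids, conjugated drugs, peptides or metal complexes across membranes, and a few members of the family are soluble proteins that act on ribosomes instead. In liver the family is known for bile formation: pumps in the canalicular membrane of hepatocytes export bile salts, phosphatidylcholine, sterols and conjugates into bile. In lung, ABCA3 loads phospholipid into the lamellar bodies of alveolar type II cells, from which surfactant is secreted.

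Total expected counts were 18741210 for replicate 1 and 18778331 for replicate 2. Hepatocyte markers were present in both and far apart. The 9 found of 10 had a summed level of 9645 TPM (the authors' length-scaled abundance) in replicate 1, against 262 TPM in replicate 2, and all 9 were above 0 in both. The 10 surfactant system genes, which are known from lung, were all found in these libraries labelled liver, with sums of 3938 TPM in replicate 1 and 6154 in replicate 2. Every result is therefore given per library. In bulk RNA, fewer cells of a type and less RNA per cell cannot be told apart.

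Of the 39 names, 38 averaged at least 1 TPM over both libraries, 21 at least 10 TPM and 11 at least 20 TPM. The family's TPM came to 608 in replicate 1, against 667 in replicate 2. Its share of all counts was 0.105% in replicate 1, with a 95% Wilson interval of 0.103% to 0.106%, and 0.120% in replicate 2, with 0.118% to 0.121%. These shares are of unscaled totals. With the scaling described below, the log2 ratio of the summed counts, replicate 1 over replicate 2, had an interval of 0.04 to 0.09. That interval covers counting error only, and the direction depends on the scaling. By mean TPM the highest member was ABCA2, an endolysosomal lipid transporter best known from brain, with 46.9 TPM in replicate 1 and 73.8 in replicate 2. ABCA3 was next in mean TPM, with 38.1 TPM in replicate 1 and 57.3 in replicate 2. ABCC5, which exports cyclic nucleotides, had 41.1 TPM in replicate 1 and 54.1 in replicate 2. ABCA8, a lipid transporter of the same subfamily as ABCA2, had 39.5 TPM in replicate 1 and 53.8 in replicate 2. ABCF1, a soluble factor of translation initiation, had 39.5 TPM in replicate 1 and 48.7 in replicate 2. These 5 names held 38.6% of the family's mean TPM. Each had the lower level in replicate 1, as had 9660 of all 12783 names. In replicate 1 alone ABCB1, at 44.9 TPM against 5.09 in replicate 2, came after ABCA2. Of that level 35.5 TPM came from 95.9 counts on 1 assembled gene of 576 bases, so this rank is uncertain.

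In 35 of the 38 neighbouring pairs in the order of mean levels, the ranges over both libraries overlapped. Such an overlap does not show that the order differs between the libraries. ABCA2 was above ABCA3 in both, although their ranges overlapped. The Spearman correlation of TPM between the libraries was 0.83 across the 39 names and 0.79 across the 34 that are not canalicular. All names share the same pair of libraries, so these values describe the libraries only.

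**Figure D1:**
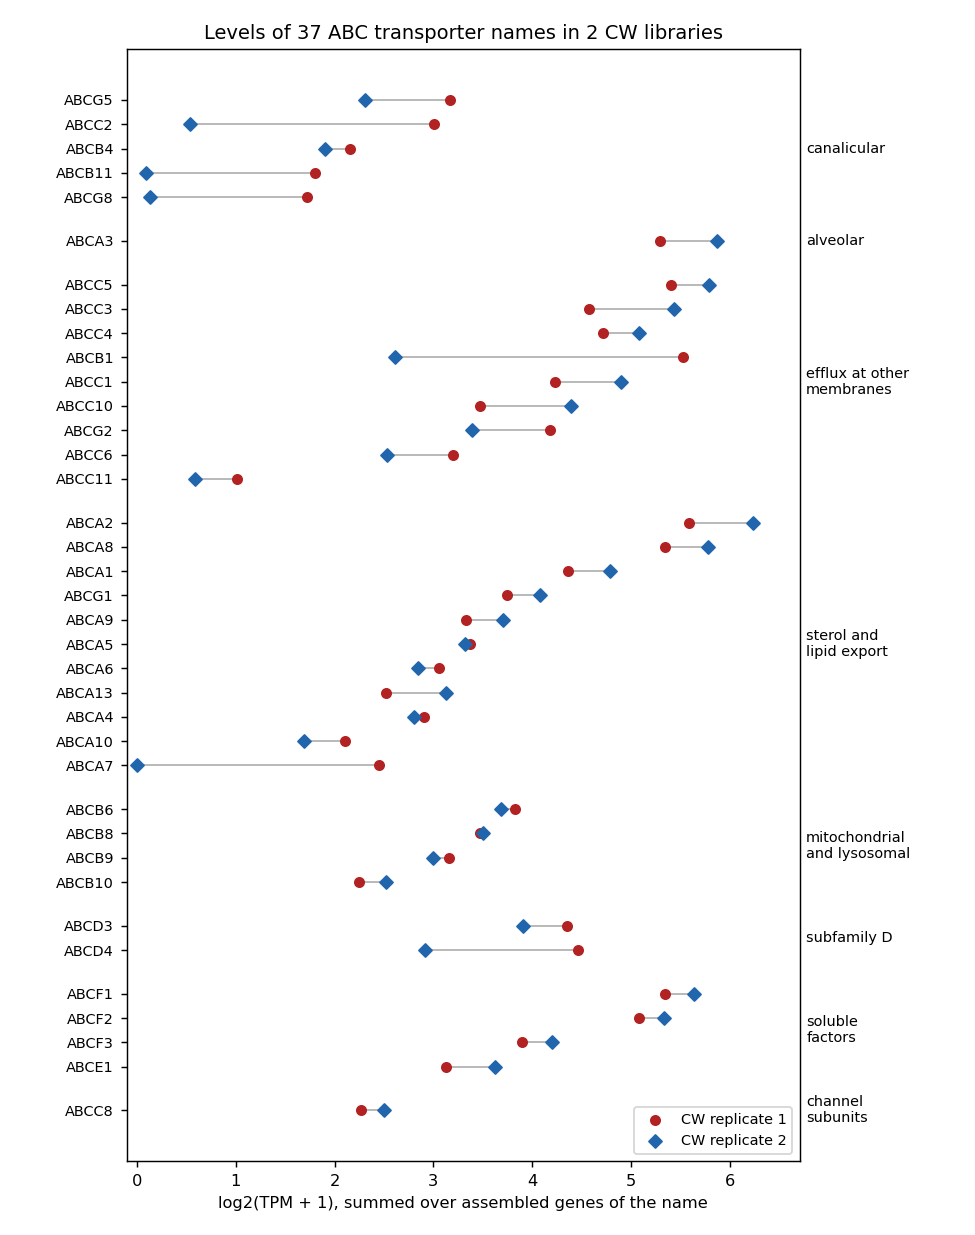
Levels of 37 of the 39 ABC transporter names as log2(TPM + 1), grouped by role, with a circle for CW replicate 1, a diamond for CW replicate 2 and a grey line joining them. The 5 canalicular names lie below 8 TPM in both libraries and have their circle to the right of their diamond, while ABCA3 had 38.1 TPM in replicate 1 and 57.3 in replicate 2.

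The canalicular pumps were low in both libraries, and all 5 had the higher TPM in replicate 1. Across all 12783 names, 23.6% had the higher TPM in replicate 1. The canalicular sum was 23.2 TPM in replicate 1, against 7.32 in replicate 2 (15.3 ± 11.3, SD, n = 2), or 3.82% of the family's TPM in replicate 1 and 1.10% in replicate 2. Differences between the libraries were taken as log2 ratios of replicate 1 over replicate 2, on scaled count values as CPM (each count relative to its library's total) plus 1 and less the median of all names. Names with a mean of at least 1 CPM were compared, and a name was counted as different past 2-fold. ABCB11, ABCC2 and ABCG8 were over 2-fold higher in replicate 1, whereas ABCB4 and ABCG5 were not.

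ABCB11, the bile salt export pump, had 2.48 TPM from 88.8 counts in replicate 1 and 0.07 TPM from 2 counts in replicate 2. Its log2 ratio was 2.49 with the pseudocount, which shrinks the ratio of so low a gene. On scaled counts alone the fold was 53.4, with a 95% interval of 14.3 to 447 that covers counting error only. All of it came from 1 assembled gene of 1691 bases.

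ABCG8 and ABCG5 form the heterodimer that exports sterols into bile. ABCG8 had 2.30 TPM from 93.0 counts in replicate 1 and 0.10 TPM from 4 counts in replicate 2, a log2 ratio of 2.42. Its fold on scaled counts was 27.9, with a counting interval of 10.5 to 104. ABCG5 had 7.97 TPM from 45.9 counts in replicate 1 and 3.96 TPM from 30.4 counts in replicate 2, a log2 ratio of 0.58. The fold of ABCG5 was 1.84 (1.14 to 3.02). These intervals cover counting error only, and ABCG8 passed the filter only through replicate 1. Whether the partners differ from each other was therefore not tested.

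ABCG5 had the higher TPM of the pair in both libraries. Of its 5 assembled genes, 1 of 230 bases gave 3.07 TPM from 2.99 counts in replicate 1. In its longest one, listed at 2045 bases, the ratio of count to TPM corresponded to a transcript of only 415 bases in replicate 1 and 382 in replicate 2. A shorter length gives a higher TPM for the same count, so the TPM order of the pair is uncertain.

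ABCC2, which exports bilirubin and glutathione conjugates into bile, had 7.04 TPM from 101 counts in replicate 1 and 0.45 TPM from 17 counts in replicate 2. Its log2 ratio was 1.91 and its fold on scaled counts 7.12 (4.24 to 12.7). ABCB4, which moves phosphatidylcholine to the outer leaflet of the canalicular membrane, had 3.45 TPM from 329 counts in replicate 1 and 2.74 TPM from 232 counts in replicate 2. Its value rests on the most counts of the 5 pumps in both libraries, and it had a log2 ratio of 0.72 and a fold of 1.70 (1.43 to 2.02). Its cluster in the assembly, DN824, also holds assembled genes named ABCB1, a close paralog, so reads of the pair may have been split between them.

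The median log2 ratio of the canalicular members was 1.91, with a range of 0.58 to 2.49, against 0 by construction for all names. ABCB11, ABCC2 and ABCG8 passed the filter of a mean of 1 CPM only through replicate 1, so their calls and this median are a description only. Hepatocyte markers were also higher in replicate 1. All 9 found were past 2-fold, beside 5.16% of all names, and 1 of the 9 had passed the filter only through replicate 1. The log2 ratios of the 9 had a median of 4.51 and a range of 3.71 to 5.62. The pseudocount shrinks the ratios of the low canalicular members most, so these 2 ranges do not rank the groups. The highest markers by mean TPM were ALB, the main plasma protein, with 7990 TPM in replicate 1 and 176 in replicate 2, APOA1, the main protein of high-density lipoprotein, with 518 TPM in replicate 1 and 36.6 in replicate 2, and TAT, an enzyme of tyrosine breakdown, with 306 TPM in replicate 1 and 19.6 in replicate 2. Their part in the canalicular difference was not tested.

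The other genes of bile formation were split. Of 25 listed, 22 were found and 18 compared; 11 were over 2-fold higher in replicate 1, 0 were over 2-fold lower and 7 lay within 2-fold, and the median of their log2 ratios was 1.28, also with the 1 gene without counts in replicate 2 at its bound, which lies above the median either way. Past 2-fold in this direction were 5.16% of all names, and 5 of the 11 passed the filter only through replicate 1, so this count and median are a description only. SLC10A1, the sodium-dependent bile acid importer of hepatocytes, was the highest by TPM, with a log2 ratio of 0.37. It had 229 TPM from 1297 counts in replicate 1 and 298 TPM from 1196 counts in replicate 2. TMEM30A, of the same list, had only 21.55 TPM from 1474 counts in replicate 2. The rank of SLC10A1 by TPM therefore depends on length and is uncertain. MYO5B, a motor for traffic to the apical membrane, had 26.6 TPM in replicate 1 and 29.0 in replicate 2, and RAB11A, a GTPase of recycling endosomes, had 28.1 TPM in replicate 1 and 28.8 in replicate 2; both lay within 2-fold.

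Regulators and an enzyme of bile acid synthesis were among the 11. HNF4A, NR1H4, NR1I3 and CYP7A1 each passed the filter only through replicate 1, so their values are a description only. HNF4A, a transcription factor of hepatocytes, had 16.9 TPM in replicate 1 and 0.71 in replicate 2. NR1H4, the bile acid receptor that induces ABCB11, had 1.00 TPM from 35.0 counts in replicate 1 and 0.14 TPM from 4 counts in replicate 2. NR1I3, a nuclear receptor for xenobiotics, had 28.2 TPM in replicate 1 and was listed at 0 in replicate 2; against a floor of 3 counts in that library it was at least 48.4-fold higher in replicate 1. CYP7A1, the rate-limiting enzyme of bile acid synthesis, had 1.14 TPM from 72.0 counts in replicate 1 and 0.02 TPM from 1 count in replicate 2. Among the 7 genes of the list within 2-fold, TMEM30A, RDX and VPS33B had log2 ratios between -0.14 and 0.22. They were picked after their values were seen and do not stand for all trafficking or scaffold genes of the list.

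ABCA3 stood apart from the canalicular members in level and in direction. It had 38.1 TPM from 1822 counts in replicate 1 and 57.3 TPM from 2590 counts in replicate 2 (47.7 ± 13.6, SD, n = 2). That is 1.64 times the summed canalicular TPM in replicate 1 and 7.83 times in replicate 2. Among the 39 names ABCA3 ranked 6 in replicate 1 and 2 in replicate 2. Its log2 ratio was -0.24, with a counting interval of -0.33 to -0.16, within 2-fold. Lower TPM in replicate 1 was also seen in 19 of the 33 other members and in 9660 of all 12783 names.

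Most of ABCA3 came from 1 assembled gene of 5105 bases, with 1746 counts in replicate 1 and 2485 in replicate 2. A further gene of 1153 bases had 51.0 counts in replicate 1 and 63.0 in replicate 2, 1 of 998 bases had 19.7 counts in replicate 1 and 40.0 in replicate 2, and 1 of 251 bases had 5 counts in replicate 1 and 2 in replicate 2. The log2 ratios of the 3 assembled genes with at least 20 summed counts were -0.45, -0.25 and -0.04. The cluster DN25935 also holds an assembled gene with the name ABCA4, a retinal transporter, at 6.06 TPM in replicate 1 and 5.49 in replicate 2; whether it belongs to ABCA3 was not tested.

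The surfactant genes lay close to ABCA3 in log2 ratio. All 10 were lower in replicate 1 by TPM, as were 9660 of all 12783 names. By log2 ratio they were within 2-fold, with a median of -0.18 and a range of -0.29 to -0.08. SFTPC, a surfactant protein of alveolar type II cells, had 2554 TPM in replicate 1 and 4047 in replicate 2. SFTPB, a hydrophobic surfactant protein, had 462 TPM in replicate 1 and 714 in replicate 2, and SFTPA1, a surfactant collectin, had 358 TPM in replicate 1 and 547 in replicate 2. The median of 6 endothelial markers was also -0.18, with CLDN5, a tight junction protein, at 88.8 TPM in replicate 1 and 137 in replicate 2, VWF at 61.9 TPM in replicate 1 and 82.7 in replicate 2 and PECAM1 at 38.1 TPM in replicate 1 and 55.1 in replicate 2. The part of these cell types in the level of ABCA3 was not tested.

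Across the whole family, 37 names passed the filter on low values and 2 did not, and 4 passed only through replicate 1. Over 2-fold higher in replicate 1 were 7 of these 37, or 18.9%, while 5.16% of all 11289 names compared were. Over 2-fold lower in replicate 1 were 0 members, against 0.0266% of all names, which is 3. Among the 7 were the 3 canalicular pumps named above and ABCB1, ABCC6 and ABCA6. These 3 pumps passed the filter only through replicate 1, so the count of 7 and its share are a description only. The remaining 30 lay within 2-fold.

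**Figure D2:**
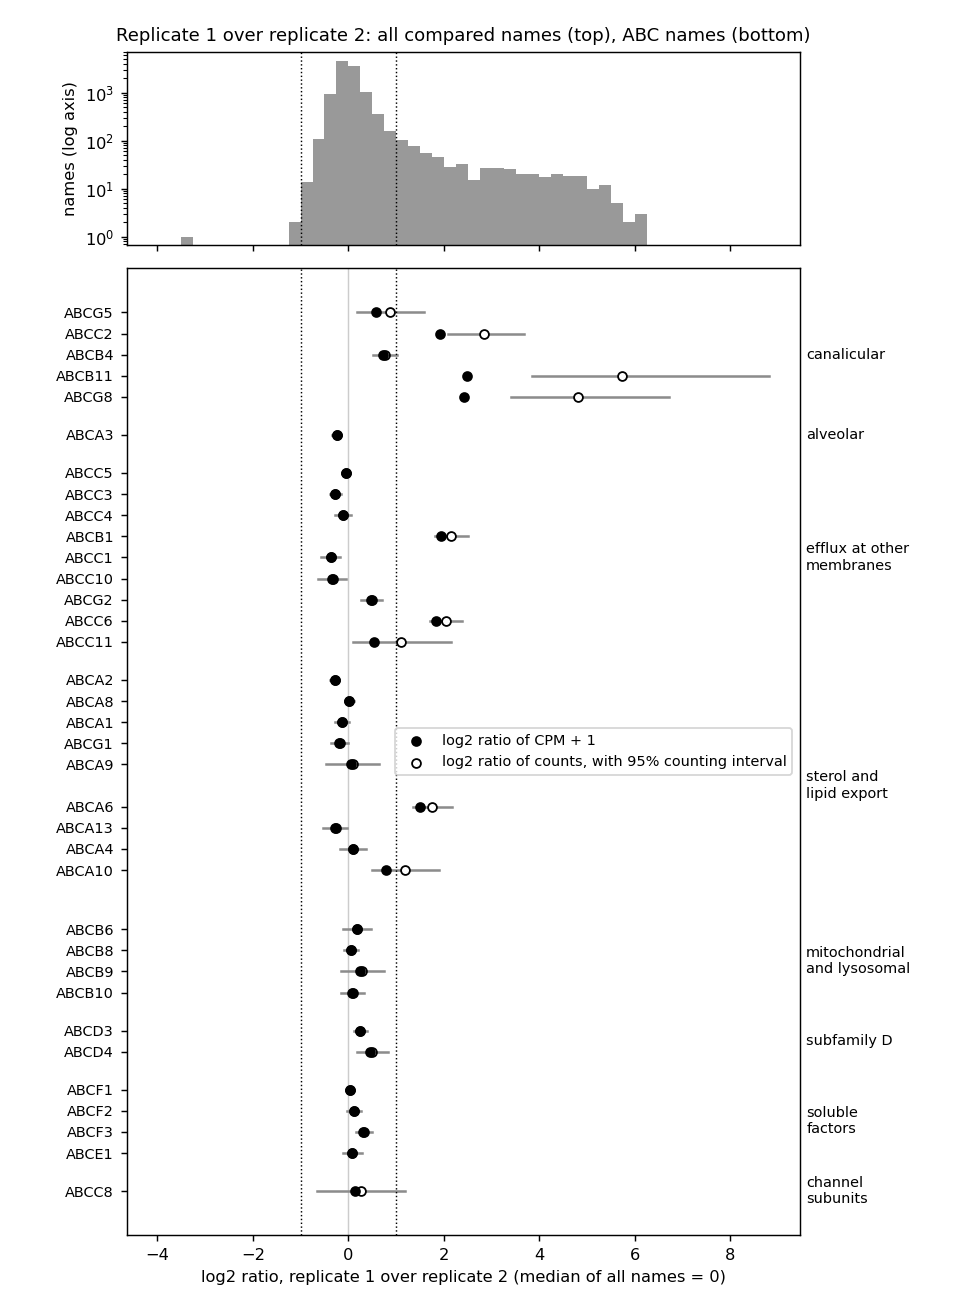
Log2 ratios of replicate 1 over replicate 2. The upper panel counts all 11289 compared names on a log axis; the lower panel shows 35 of the 37 compared ABC names, with filled points on CPM + 1, open points on scaled counts without a pseudocount and grey 95% counting intervals, and dotted lines mark 2-fold. Of the members drawn, 6 have their filled point past the right dotted line and 0 past the left one.

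Among exporters of drugs and conjugates at other membranes, 9 of 10 listed names were found. Over 2-fold higher in replicate 1 were 2 of them, beside 5.16% of all names. ABCB1, P-glycoprotein, which expels many drugs at the blood-brain barrier and elsewhere, had 44.9 TPM from 338 counts in replicate 1 and 5.09 TPM from 91.1 counts in replicate 2. Its fold on scaled counts was 4.45 (3.52 to 5.68). ABCC6, known mainly from liver and kidney and mutated in pseudoxanthoma elasticum, had 8.19 TPM from 337 counts in replicate 1 and 4.78 TPM from 98.2 counts in replicate 2, with a fold of 4.12 (3.28 to 5.22).

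By mean TPM the 3 highest exporters were ABCC5, ABCC3 and ABCC4, all within 2-fold. In replicate 1 alone ABCB1 was the highest by TPM, but 35.5 of its 44.9 TPM came from 95.9 counts on 576 bases. By counts in that library ABCB1, with 338, was below ABCC5 with 1952, ABCC3 with 981 and ABCC4 with 546. ABCC3, an exporter of conjugates at the basolateral membrane of epithelia, had 22.7 TPM in replicate 1 and 42.0 in replicate 2, and ABCC4, a cyclic nucleotide and bile acid exporter, had 25.2 TPM in replicate 1 and 32.7 in replicate 2. ABCC3 and ABCC2 carry overlapping conjugates on opposite sides of the hepatocyte. The log2 ratio of ABCC3 was -0.27, within 2-fold. That of ABCC2 was 1.91, but ABCC2 passed the filter only through replicate 1. Whether the 2 differ from each other was not tested. ABCC1, which exports glutathione conjugates and arsenic complexes, had 17.8 TPM in replicate 1 and 28.7 in replicate 2 and the lowest log2 ratio of the family, -0.36. ABCC10 had 10.1 TPM in replicate 1 and 19.95 in replicate 2. ABCG2, a urate and drug exporter, had 17.0 TPM in replicate 1 and 9.48 in replicate 2. ABCC11, an exporter of apocrine glands, had the lowest mean of the 39 names, at 1.02 TPM in replicate 1 and 0.51 in replicate 2.

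Lipid and sterol transporters of subfamilies A and G came next, with 11 of 14 listed names found and 9 compared. Over 2-fold higher in replicate 1 was 1 of them, beside 5.16% of all names. ABCA1, which passes cholesterol to apolipoprotein A-I, had 19.6 TPM in replicate 1 and 26.5 in replicate 2. ABCG1, which passes it to mature high-density lipoprotein, had 12.4 TPM in replicate 1 and 15.9 in replicate 2. ABCA6, a lipid transporter of subfamily A, was the 1 that differed, with 7.32 TPM from 195 counts in replicate 1 and 6.17 TPM from 69.3 counts in replicate 2, a fold on scaled counts of 3.39 (2.56 to 4.53). Its relatives ABCA8 and ABCA9 had log2 ratios of 0.02 for ABCA8 and 0.06 for ABCA9, and ABCA10 one of 0.79. ABCA7, linked to phagocytosis, had 13.0 counts in replicate 1 and was listed at 0 in replicate 2, at least 5.20-fold higher in replicate 1 against a floor of 3 counts there, and was below the filter. ABCA5, the other name below it, had 9.31 TPM from only 7 counts in replicate 1 and 8.95 TPM from 6 counts in replicate 2 on 212 bases.

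Genes that control sterol export were also mixed. Of 10 found, 9 were compared and 3 were over 2-fold higher in replicate 1, beside 5.16% of all names. The median was 0.05 on the log2 scale. NR1H2, the widely expressed sterol receptor that induces ABCA1 and ABCG1, had 33.6 TPM in replicate 1 and 34.5 in replicate 2. NR1H3, its relative found mainly in liver, fat and macrophages, had 9.97 TPM in replicate 1 and 4.16 in replicate 2 and a log2 ratio of 1.49. APOE, an apolipoprotein that hepatocytes and macrophages secrete, had 2987 TPM in replicate 1 and 72.0 in replicate 2, and SREBF1, a regulator of lipid synthesis, had 24.8 TPM in replicate 1 and 34.2 in replicate 2.

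Macrophages also use ABCA1 and ABCG1. Of 6 macrophage markers, 5 lay within 2-fold and 1, the scavenger receptor MARCO, was higher in replicate 1, with 10.8 TPM in replicate 1 and 0.62 in replicate 2. Past 2-fold in this direction were 5.16% of all names, and the median of all 6 markers was 0.13 on the log2 scale. C1QA, a complement subunit, was highest at 70.3 TPM in replicate 1 and 96.0 in replicate 2, CD68 had 23.4 TPM in replicate 1 and 33.4 in replicate 2, and MRC1 had 16.3 TPM in replicate 1 and 21.5 in replicate 2.

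The 5 mitochondrial and lysosomal members of subfamily B had sums of 45.5 TPM in replicate 1 and 45.3 in replicate 2, and all lay within 2-fold, with log2 ratios between 0.06 and 0.24. ABCB6, a porphyrin transporter, had 13.1 TPM in replicate 1 and 11.8 in replicate 2. ABCB8, of the inner mitochondrial membrane, had 10.1 TPM in replicate 1 and 10.3 in replicate 2.

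In subfamily D, 3 of 4 listed names were found and all 3 had the higher TPM in replicate 1, as had 23.6% of all names. ABCD3, which imports bile acid precursors and branched-chain acids into peroxisomes, had 19.4 TPM from 845 counts in replicate 1 and 14.0 TPM from 852 counts in replicate 2, with a log2 ratio of 0.24. ABCD4, which acts in lysosomal cobalamin export, had 21.0 TPM in replicate 1 and 6.52 in replicate 2 and a log2 ratio of 0.45.

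The soluble members and the channel subunit all lay within 2-fold. After ABCF1, ABCF2 had 32.8 TPM in replicate 1 and 39.3 in replicate 2 and ABCF3 13.9 TPM in replicate 1 and 17.3 in replicate 2. ABCE1, which splits ribosomes after termination, had 7.71 TPM in replicate 1 and 11.4 in replicate 2. All 4 had the lower TPM in replicate 1, yet log2 ratios between 0.03 and 0.31 on scaled counts, relative to the median of all names. ABCC8, the sulfonylurea receptor of ATP-sensitive potassium channels, had 22.0 counts in each library, or 3.83 TPM in replicate 1 and 4.66 in replicate 2.

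Outside the subfamily names, the antigen peptide transporter subunits TAP1 and TAP2 belong to the same protein family. TAP2 had 31.9 TPM in replicate 1 and 43.1 in replicate 2 and a log2 ratio of -0.11, and TAP1 had 5.04 TPM from 5.51 counts in replicate 1 and 12.6 TPM from 12.8 counts in replicate 2. The rule does not take them.

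The values per name rest on assembled genes of unequal length. The 111 ranged from 204 to 6041 bases with a median of 471, and 9 names had a single one while ABCA1 had 8. Of these, 57 were under 500 bases; they held 1.35% of the family's counts in replicate 1 and 1.15% in replicate 2, but 25.4% of its TPM in replicate 1 and 25.5% in replicate 2. The lengths that the authors' TPM imply are well below the listed ones for short assembled genes, which raises their TPM per count. For ABCB1 in replicate 1, 35.5 of the 44.9 TPM came from 95.9 counts on 1 assembled gene of 576 bases, while 232 counts on another of 2182 bases gave 4.71 TPM. For ABCD4, 16.1 of 21.0 TPM in replicate 1 came from 19.0 counts on 245 bases.

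TPM and counts also parted where the implied length changed between libraries. The main ABCD3 gene had 821 counts in replicate 1 and 809 in replicate 2 but 17.2 TPM in replicate 1 and 9.84 in replicate 2, and its implied length was 2107 bases in replicate 1 and 4089 in replicate 2. For ABCG2, which had 372 counts in replicate 1 and 317 in replicate 2, it was 964 bases in replicate 1 and 1660 in replicate 2, and for the longer ABCC2 gene 892 in replicate 1 and 1878 in replicate 2. With TPM in place of CPM, again plus 1 and less the median of all names, 10 of 38 members were over 2-fold higher in replicate 1. Of all 12326 names compared in this way, 7.72% were. ABCA7, ABCD4, ABCG2 and ABCG5 joined and ABCA6 left. As a plain ratio of TPM, ABCG2 was 1.80-fold and ABCC6 1.71-fold higher in replicate 1, so their calls rest on the median removed.

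Assembled genes with the same name could lie on different sides. Of the 54 member genes with at least 20 summed counts, 8 were over 2-fold higher in replicate 1, beside 7.37% of the 28834 such assembled genes in all. ABCC6 had 1 gene of 3136 bases at 288 counts in replicate 1 and 34.4 in replicate 2 and another of 1073 bases at 48.8 counts in replicate 1 and 62.9 in replicate 2. ABCA6 had 1 gene of 1269 bases at 101 counts in replicate 1 and 2 in replicate 2 and another of 2062 bases at 87.9 counts in replicate 1 and 54.3 in replicate 2. In both names 1 of these genes was over 2-fold higher in replicate 1 and the other within 2-fold. Both genes of ABCB1 with at least 20 summed counts were higher in replicate 1, with log2 ratios of 2.52 and 1.51. The gene at 2.52 had 95.9 counts in replicate 1 and 3.4 in replicate 2, so it reached that cut only through replicate 1.

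**Figure D3:**
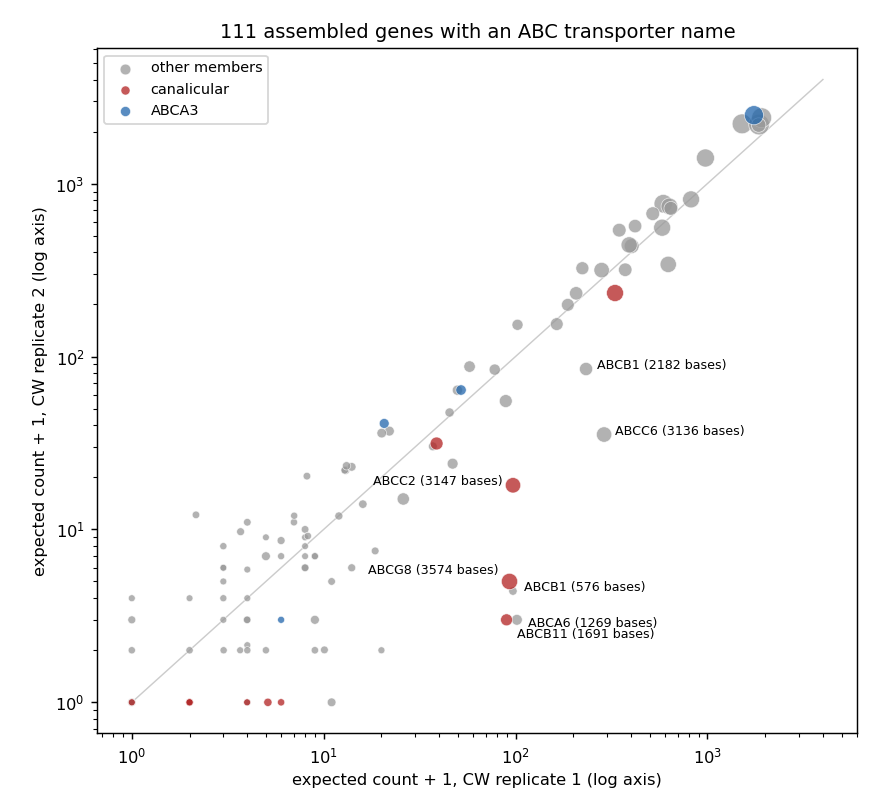
Expected counts plus 1 of the 111 assembled genes with an ABC transporter name, in replicate 1 (horizontal, log axis) and replicate 2 (vertical, log axis); a larger point is a longer assembled gene, and the line marks equal counts. The 7 labelled points were over 2-fold higher in replicate 1 with at least 20 summed counts, and the blue ABCA3 gene at 1746 counts in replicate 1 and 2485 in replicate 2 lies among the highest points.

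The protein matches all came from mammals, with 78 of the 111 assembled genes matched to human, 15 to mouse and 6 to rat proteins. A domain with ABC in its name was listed by the authors for 88, most often the ATP-binding domain ABC_tran with 34 and the membrane domain ABC_membrane with 23, and 22 had no domain listed. RefSeq's genes for the bat (assembly ASM189008v1) include 39 symbols of this form, 34 of which were names here. ABCA12, ABCB5, ABCC9, ABCD2 and ABCG4 have no value here. In turn, 5 of the names here are not among those symbols, and whether they are named rightly was not tested. The clusters DN824, DN25935 and DN21699 each held 2 names, pairing ABCB1 with ABCB4, ABCA3 with ABCA4, and ABCA7 with ABCA13, so values within these pairs are uncertain.

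**Figure D4:**
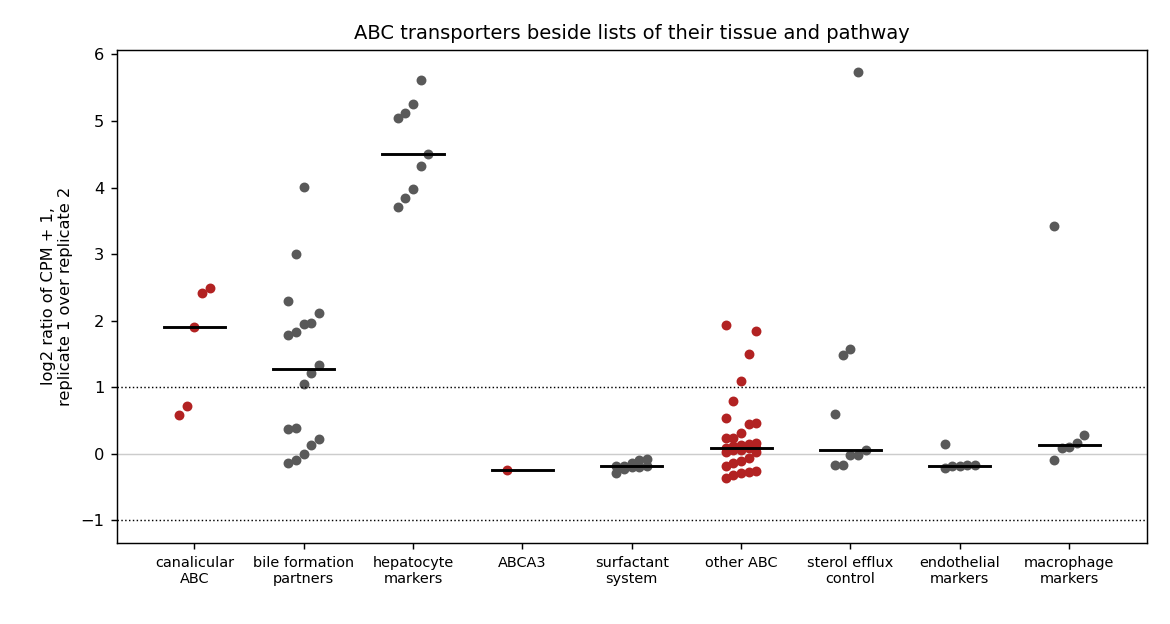
Log2 ratios of CPM + 1, replicate 1 over replicate 2, for ABC transporters (red) and listed genes of their tissues and pathways (grey); each point is a compared gene, bars are medians and dotted lines mark 2-fold. Hepatocyte markers have a median of 4.51, canalicular transporters 1.91 and bile formation partners 1.28, while the other ABC members (0.09, or -0.14 with library size scaling, where all names have -0.24), ABCA3 (-0.24), surfactant genes (-0.18) and endothelial markers (-0.18) lie near 0.

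Apart from the canalicular members and ABCA3, the sum of the 33 other names was 547 TPM in replicate 1, against 603 in replicate 2 (575 ± 39.7, SD, n = 2). Of these, 31 were compared and 4 were over 2-fold higher in replicate 1, beside 5.16% of all names. The median log2 ratio of the 31 was 0.09. With library size scaling it was -0.14, where the median of all names was -0.24. The difference between this median and that of the canalicular members was not tested.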

How the data were processed

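Poly(A)-selected RNA of 2 libraries was analysed. The authors deposited 1 table per library of Trinity assembled genes with expected counts, which the column names call counts per the file headers and which hold decimals. A second deposited column was read as TPM because it summed to 996837 and 996239; its header gives no unit. Per the submitters' processing notes, cutadapt 1.9 was used, and the mm10 build is listed for replicate 1 only. The quantifier and the assembler's version are not given in the sources used here.

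Values were summed by upper-case name. Expected counts were rounded and scaled with edgeR 4.0.16 TMM factors (0.910 for replicate 1 and 1.10 for replicate 2) in R 4.3.3, over all assembled genes, of which 30192 without a name held 8.70% of counts in replicate 1 and 9.69% in replicate 2. Log2 ratios used CPM + 1 among names with a mean of at least 1 CPM, less their median. Exact 95% intervals of count ratios and Wilson intervals cover counting error only, since these reads carry no molecular identifiers. A count of 3 corresponds to 0.281 TPM in replicate 1 and 0.317 in replicate 2 at 471 bases. The ratio was tested on simulated counts with counting error only, where the changed names lay well above the filter and went equally up and down. This did not cover changes at the low counts of ABCB11 or ABCG8, or a shift mostly upward in replicate 1. Further tools were Python 3.11.15, scipy 1.17.1, numpy 2.4.6, matplotlib 3.10.9 and pandas 2.3.3.

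Implied lengths are count over TPM, scaled on assembled genes with 1 isoform and at least 200 counts. Named genes were all canalicular members and ABCA3, the 5 highest others, up to 3 highest of each role, members past 2-fold and the 3 highest of each other list; further names were chosen after their values were seen. Members, lists and roles were chosen with earlier results of these data known. Alternatives were another pseudocount, filters, library size and DESeq2 1.42.0 scaling, TPM, mammalian matches, the assembled gene with the most counts, and leaving out each replicate. Leaving out assembled genes under 500 bases was chosen after seeing the data. Some members and listed genes enter the counts, sums and medians but are not reported here by name or drawn as labelled points.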

Additional observations from a re-analysis of the deposited data

How the results depend on the processing

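The count of members over 2-fold higher in replicate 1 was 7 and ranged from 6 to 10 under 8 alternatives, beside 4.39% to 7.72% of all names. It was 3 of 26 members compared with the filter raised to 10 CPM, beside 4.54% of all names. There ABCB4 is the 1 canalicular member left, which also sets the canalicular median to 0.73. With a pseudocount of 0.1 CPM that median was 2.69, since less shrinkage acts on low counts, and ABCA10 joined the calls. Library size scaling with no median removed put the median of all names at -0.24; ABCA3 had a log2 ratio of -0.50 and the other members a median of -0.14, in place of 0.09. Relative to that shift both moved little. The summed TPM of the other members was 385 with only the assembled gene with the most counts of each name and 418 without assembled genes under 500 bases, as fewer fragments are summed. With only the assembled gene with the most counts of each name, ABCA6 was not past 2-fold. Levels without replicate 1 and without replicate 2 were 7.32 and 23.2 TPM for the canalicular sum 57.3 and 38.1 TPM for ABCA3, and 603 and 547 TPM for the other members; 34 and 39 members were at 1 TPM or more. The mammalian filter and DESeq2 size factors left all 7 calls in place. With 1 library against 1 the ratios could not be computed without either replicate, and the spread between animals is not known.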
